A study of Homo sapiens with 4 samples.

Results

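The genes described are 10 of the YAP and TEAD pathway: the co-activator YAP1, its DNA-binding partner TEAD1, the target genes ANKRD1, CYR61 (now CCN1), CTGF (now CCN2), THBS1 and AXL, and the regulators AMOTL2, LATS2 and AJUBA. They were taken by name from the 58735 gene rows of an RNA-seq count table, by matching Ensembl identifiers to GENCODE release 29, and the set was put together because ANKRD1 was among the largest falls in these data. UHRF1 KO against control is therefore the contrast on which the set was chosen. For the 10 genes it is given as a description, without p-values. The samples were 4 libraries of A549, a human lung adenocarcinoma line: 2 from cells given lentiCRISPRv2-hygro with a guide against UHRF1 (UHRF1 KO) and 2 from cells given the same vector with a non-targeting guide (control). All cells had been selected with hygromycin. The sources used here do not say whether cells were pools or single clones, or whether separate cultures gave the 2 libraries of each group. The p-values given for other genes therefore measure the scatter of these libraries alone, which may be technical.

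YAP1 and its relative TAZ (gene WWTR1) are co-activators without a DNA-binding domain of their own. They reach their target genes through the TEAD transcription factors, which recognise the core GGAATG. The Hippo kinase cascade, ending in LATS1 and LATS2, phosphorylates YAP and TAZ and holds them in the cytoplasm, and several targets of the pathway, LATS2 and AMOTL2 among them, feed back on it. UHRF1 is the factor that brings the methyltransferase DNMT1 to newly replicated, hemimethylated DNA. Activity of YAP depends largely on phosphorylation and location in the cell, neither of which is measured by RNA counts.

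Total counts ranged from 18604598 to 23977168 per library. UHRF1 itself had 39.0 and 40.2 CPM (counts per 1000000, after TMM scaling) in UHRF1 KO, against 97.4 and 98.7 CPM in control, a log2 fold change of -1.31 (SE 0.055). Since a guide cuts DNA and can leave the transcript in place, this checks the labels only in part. The epithelial markers KRT8, KRT18, KRT19, EPCAM and CDH1 were all detected and summed to 2906.8 and 2876.5 CPM in UHRF1 KO, against 3817.1 and 3626.7 CPM in control. KRT8 and KRT18 make up most of these sums. EPCAM, at 9.97 CPM in UHRF1 KO and 2.21 CPM in control, was called higher while the other 4 were called lower. The 11 markers of blood, endothelial and fibroblast cells summed to 53.3 and 56.2 CPM in UHRF1 KO, against 5.6 and 6.57 CPM in control. PECAM1 and COL1A1 were the largest parts in UHRF1 KO, and COL1A1 and CD14 in control. CD3E was at 0 in all 4 libraries, and PTPRC, CDH5 and DCN were at 0 in both controls. The part of these markers in the results that follow was not tested. Changes were widespread: of 17030 genes tested with edgeR, 32.0% were called higher in UHRF1 KO and 30.1% lower at an adjusted p under 0.05.

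All 10 genes passed the filter on low counts, and those other than ANKRD1 had at least 300 counts in every library. In a bulk library, fewer cells with a transcript and less of it per cell cannot be told apart. In the same fit 3 were called higher and 7 lower, against 62.0% of all genes called in either direction. The CPM of the 2 groups did not overlap for any of the 10, and did not overlap for 80.0% of all genes tested. With shares this high in the background, and a set chosen on this contrast, nothing is read from these counts. The sizes differed widely. ANKRD1 was 8.11-fold lower, THBS1 3.35-fold and AJUBA 2.05-fold, while the other 7 lay between 1.69-fold lower (AXL) and 1.39-fold higher (CTGF). A called fall of at least 2-fold was seen for 2.54% of all genes tested. The median log2 fold change was -0.55 over the 10 genes and 0.02 over all genes tested.

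**Figure D1:**
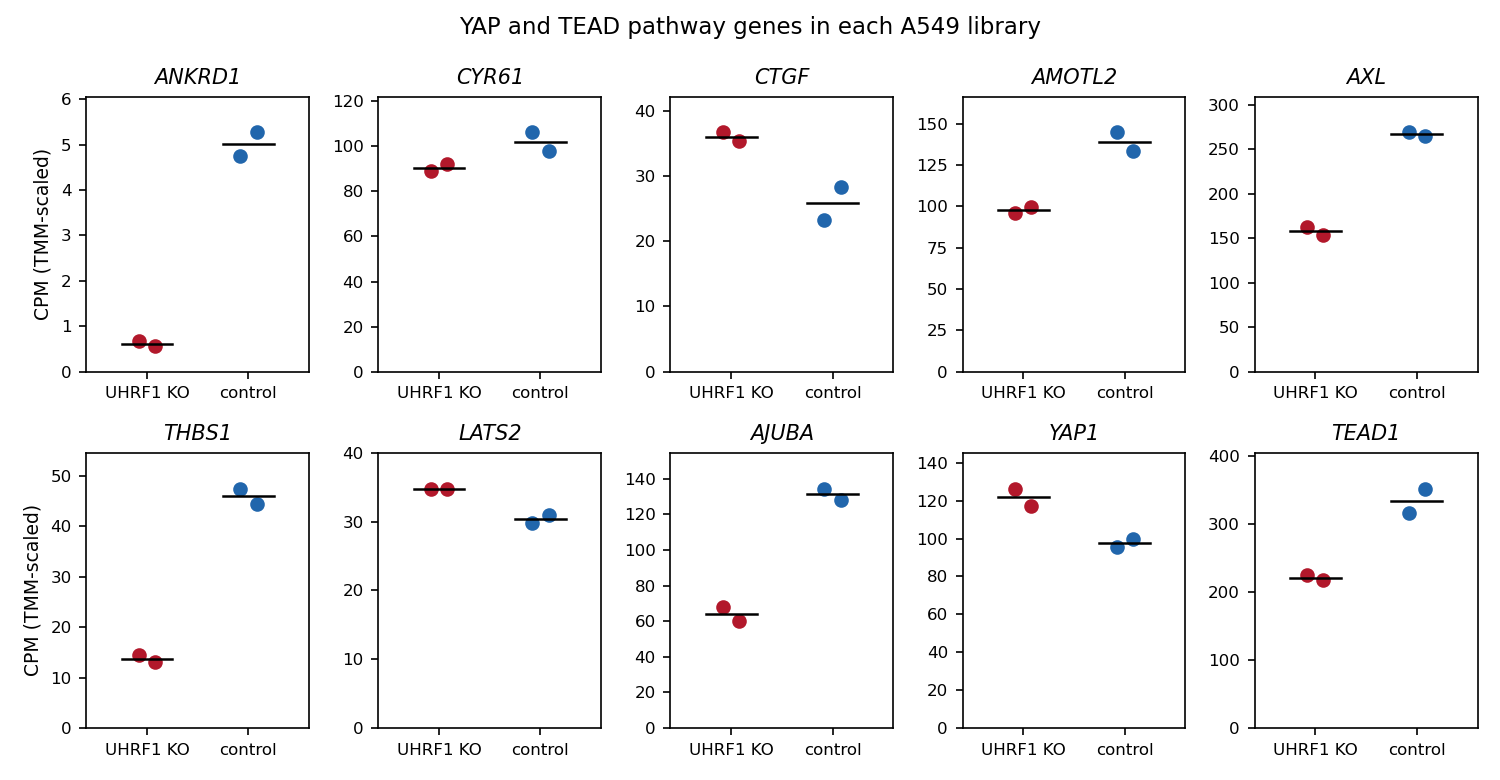
CPM after TMM scaling (vertical axes, from 0) of each of the 10 genes in the 2 UHRF1 KO libraries (red) and the 2 control libraries (blue), with the mean of each group as a black line. CTGF, LATS2 and YAP1 lie higher in UHRF1 KO and the other 7 genes lower, and ANKRD1 lies under 1 CPM in both UHRF1 KO libraries.

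YAP1, the co-activator itself, had 126.4 and 117.2 CPM in UHRF1 KO, against 95.8 and 99.7 CPM in control. Both UHRF1 KO libraries were above both controls. The log2 fold change was 0.32 (SE 0.048), and the ratios of single libraries across the groups ran from 0.23 to 0.40 on the log2 scale. With the libraries rescaled to an equal mean log2 CPM, called recentred from here on, the YAP1 value was 0.02 and it was no longer called. TAZ, which shares its role with YAP, was lower. WWTR1 had 169.1 and 164.7 CPM in UHRF1 KO, against 252.1 and 255.2 CPM in control, with a fitted log2 difference of -0.60 (SE 0.039; edgeR adjusted p = 4.86e-15). Set against exon length, the level of YAP1 was 20.1 and 18.6 CPM per kb in UHRF1 KO, against 15.2 and 15.8 CPM per kb in control. WWTR1 stood at 20.1 and 19.6 CPM per kb in UHRF1 KO, against 30.0 and 30.3 CPM per kb in control. YAP1 was thus 50.0% and 48.7% of the 2 genes' summed level in UHRF1 KO, against 33.7% and 34.3% in control.

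TEAD1, the TEAD factor with the highest level per length in all 4 libraries, was lower in UHRF1 KO. It had 225.2 and 217.5 CPM in UHRF1 KO, against 317.2 and 352.5 CPM in control, a log2 fold change of -0.60 (SE 0.042). The controls differed from each other by 0.15 on the log2 scale, less than the gap between the groups, where the smallest ratio was -0.49. The other TEAD genes did not follow it. TEAD3 had 14.2 and 14.1 CPM in UHRF1 KO, against 7.5 and 7.7 CPM in control, and rose by 0.90 on the log2 scale (SE 0.12; edgeR adjusted p = 1.05e-07). TEAD2 rose by 0.44 on the log2 scale (SE 0.077; edgeR adjusted p = 7.16e-06). TEAD4 had 27.9 and 29.4 CPM in UHRF1 KO, against 28.4 and 28.3 CPM in control, and did not pass the test (log2 fold change 0.01, SE 0.077, edgeR adjusted p = 0.887). The 4 genes together came to 50.0 and 50.4 CPM per kb in UHRF1 KO, against 54.2 and 57.8 CPM per kb in control. Of that sum TEAD1 was 43.8% and 42.0% in UHRF1 KO, against 57.0% and 59.4% in control, and TEAD2 was 22.3% and 23.2% in UHRF1 KO, against 15.4% and 14.7% in control.

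Vestigial-like proteins compete with or stand in for YAP on TEAD factors. VGLL4, which is known to oppose YAP on TEAD, rose to 40.4 ± 2.68 CPM in UHRF1 KO, against 28.2 ± 0.452 CPM in control (SD, n = 2; log2 fold change 0.52, edgeR adjusted p = 2.63e-07). VGLL3 was at 36.9 ± 1.48 CPM in UHRF1 KO and 40.6 ± 3.64 CPM in control (SD, n = 2) and did not pass the test (log2 fold change -0.14, edgeR adjusted p = 0.098). Without control replicate 1, VGLL3 was called lower (log2 fold change -0.24, edgeR adjusted p = 0.00498), as it was with no filter and with recentring. VGLL1 had no count in any library and VGLL2 was too low to be tested. Of the 6 partners and co-factors tested, 3 rose and 1 fell, and 2 rose and 3 fell with libraries recentred.

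**Figure D2:**
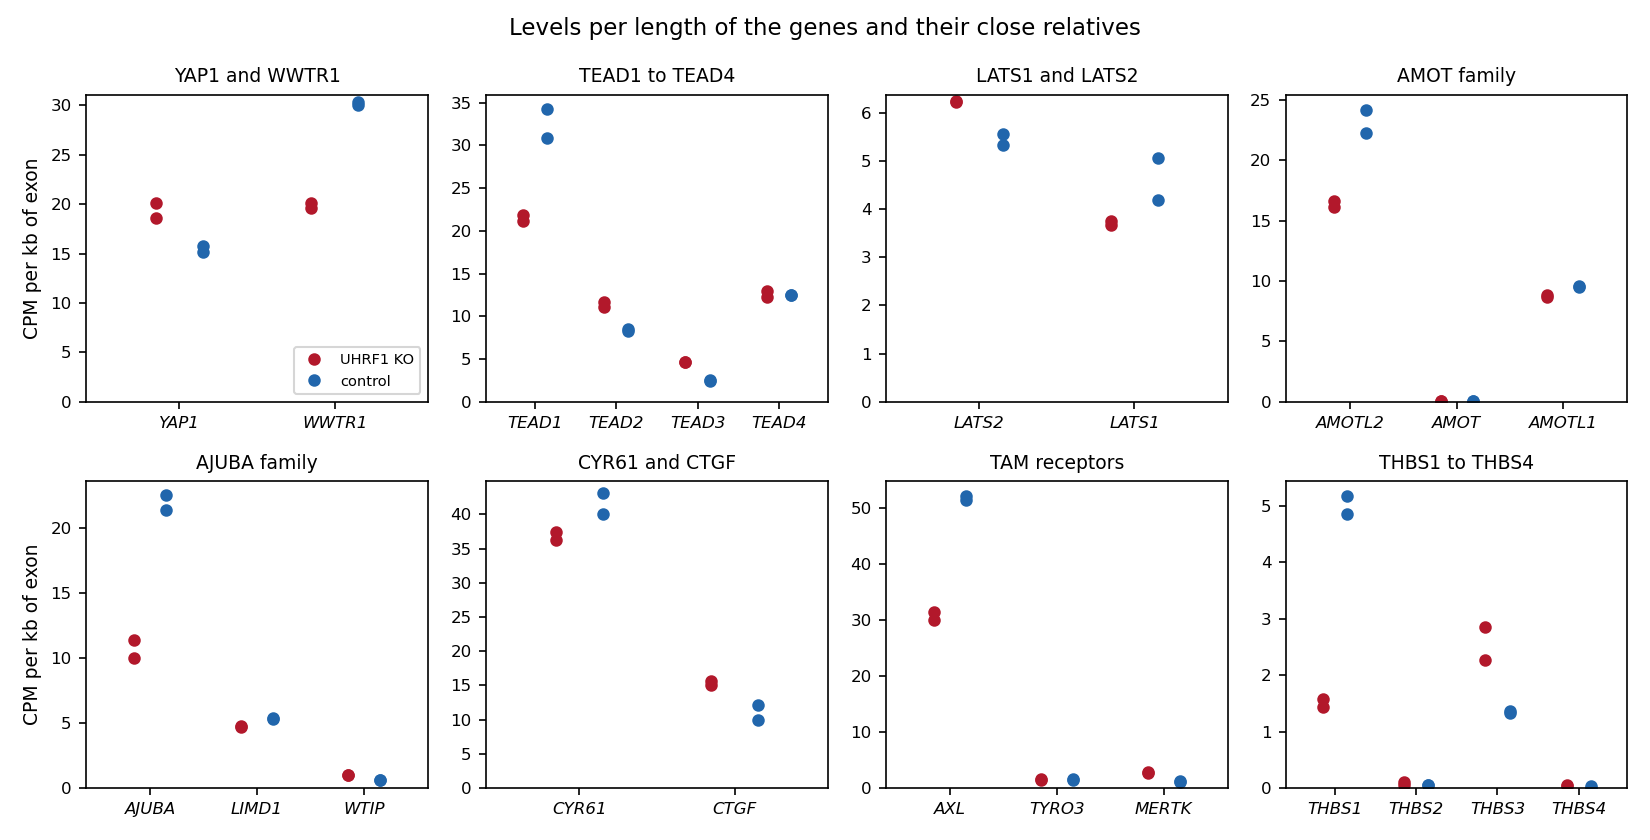
Level per length (CPM per kb of exon, vertical axes from 0) in each UHRF1 KO library (red, left of each pair) and each control library (blue, right) for the genes described and their close relatives, 1 panel per family. YAP1 and WWTR1 lie near 20 CPM per kb in UHRF1 KO but apart in control, and THBS3 lies above THBS1 in UHRF1 KO and below it in control.

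Promoters of 3 target genes, of the feedback gene AMOTL2 and of YAP1 are shown. They hold the core GGAATG that TEAD factors recognise, as do windows of AXL, LATS2 and AJUBA that are not shown. RefSeq windows (GRCh38.p14, 250 bases before to 50 after the annotated start) were found for 8 of the 10 genes, under the symbol CCN2 for CTGF. No window was matched for CYR61 or TEAD1. The sequences below run 5′ to 3′ on the strand of the gene, with each GGAATG, or its reverse complement CATTCC, in capitals. They are ANKRD1 (chr10:90921038-90921337, minus strand), CTGF (chr6:131951323-131951622, minus strand), THBS1 (chr15:39580829-39581128, plus strand) and YAP1 (chr11:102110197-102110496, plus strand), and the second of the AMOTL2 windows (chr3:134374398-134374697, minus strand).
ANKRD1: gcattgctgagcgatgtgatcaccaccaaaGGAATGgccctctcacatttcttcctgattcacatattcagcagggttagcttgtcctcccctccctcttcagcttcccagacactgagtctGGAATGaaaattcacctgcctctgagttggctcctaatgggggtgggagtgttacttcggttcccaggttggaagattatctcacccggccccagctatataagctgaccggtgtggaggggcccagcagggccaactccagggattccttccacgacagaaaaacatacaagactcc
CTGF: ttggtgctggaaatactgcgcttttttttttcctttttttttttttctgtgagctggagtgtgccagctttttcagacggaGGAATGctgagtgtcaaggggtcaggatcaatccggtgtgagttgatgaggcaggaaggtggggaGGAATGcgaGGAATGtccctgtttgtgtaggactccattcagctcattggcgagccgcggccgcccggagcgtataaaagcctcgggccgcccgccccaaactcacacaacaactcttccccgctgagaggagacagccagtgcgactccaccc
THBS1: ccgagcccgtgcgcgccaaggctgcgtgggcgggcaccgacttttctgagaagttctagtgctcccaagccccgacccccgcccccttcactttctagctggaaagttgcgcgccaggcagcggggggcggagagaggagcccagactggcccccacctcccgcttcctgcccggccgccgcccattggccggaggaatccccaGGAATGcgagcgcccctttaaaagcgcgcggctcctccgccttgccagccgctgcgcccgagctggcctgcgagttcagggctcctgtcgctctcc
YAP1: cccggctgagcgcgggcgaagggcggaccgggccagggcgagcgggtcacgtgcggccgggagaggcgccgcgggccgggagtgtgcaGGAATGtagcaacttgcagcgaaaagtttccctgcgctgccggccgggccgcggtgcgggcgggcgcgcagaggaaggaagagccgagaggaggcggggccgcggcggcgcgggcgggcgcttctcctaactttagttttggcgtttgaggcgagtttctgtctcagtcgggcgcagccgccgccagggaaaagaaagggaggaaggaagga
AMOTL2: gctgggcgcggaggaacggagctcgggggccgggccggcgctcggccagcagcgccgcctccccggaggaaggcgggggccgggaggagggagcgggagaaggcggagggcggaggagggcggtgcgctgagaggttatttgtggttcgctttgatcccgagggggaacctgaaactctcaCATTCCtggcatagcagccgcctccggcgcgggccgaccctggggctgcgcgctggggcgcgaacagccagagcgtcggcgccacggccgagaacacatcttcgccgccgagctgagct
The ANKRD1 window holds the core at positions -220 and -128, counted from the annotated start. The CTGF window holds it at -169, -104 and -95, and THBS1 holds it at -46. YAP1 has a core at -162 and AMOTL2 has it on the other strand at -69. Of the windows not shown, the other AMOTL2 window has no core and holds 1 CpG. Of the AXL windows 1 has none and the other has a single core at -212. Of the AJUBA windows 1 has none and the other has a single core at -59. The LATS2 window has a single core at position 10. At least 1 window of each of the 8 genes held the core, and 8 of their 11 windows did, beside 14.0% of all 35116 promoter windows in the table. At least 2 matches were found in 1.37% of all windows and at least 3 in 0.128%. A match is a string of letters and does not show that a factor binds there. The genes with repeated cores did not move alike, as ANKRD1 with 2 was lower and CTGF with 3 was higher. The windows also differ in CpG dinucleotides, with 5 in ANKRD1, 15 in CTGF, 29 in THBS1, 37 in the AMOTL2 window shown and 40 in YAP1. The median of all windows was 14. UHRF1 acts on CpG sites that are hemimethylated, so a count of CpG is not a count of its sites. Methylation was not measured in these libraries.

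ANKRD1 encodes a cardiac ankyrin repeat protein and is among the most used readouts of YAP activity. It had 14 and 14 counts in UHRF1 KO, against 85 and 98 counts in control, or 0.674 and 0.562 CPM in UHRF1 KO, against 4.76 and 5.27 CPM in control. Neither UHRF1 KO library came near a control. The log2 fold change was -3.02 (SE 0.28). Its place among the largest falls is what chose the set: it was 13 in order of fitted fold among all 17030 genes tested. Its counts are few: the 28 counts summed over UHRF1 KO have an exact Poisson interval of 18.6 to 40.5, against 183 in control with 157.4 to 211.5 (95%, counting error only).

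THBS1 encodes thrombospondin-1, a secreted matrix glycoprotein that can activate latent TGF-beta. It had 14.4 and 13.1 CPM in UHRF1 KO, against 47.5 and 44.4 CPM in control, a log2 fold change of -1.75 (SE 0.083). The smallest gap between single libraries of the groups was -1.62 on the log2 scale, and the 2 libraries within a group differed by at most 0.15. THBS1 was 39.8% and 32.3% of the summed level per length of THBS1 to THBS4 in UHRF1 KO, against 78.2% and 78.0% in control. These shares rest on merged exon lengths of 9158 bp for THBS1 and 4623 bp for THBS3. THBS3 rose in the same cells, from a low level, to 11.8 ± 1.89 CPM in UHRF1 KO, against 6.2 ± 0.174 CPM in control (SD, n = 2; log2 fold change 0.94, edgeR adjusted p = 6.29e-07).

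CYR61 and CTGF encode matricellular CCN proteins and are, with ANKRD1, the customary YAP target panel. They did not share its size of change. CYR61 had 88.9 and 92.2 CPM in UHRF1 KO, against 106.2 and 98.1 CPM in control. The groups did not overlap, but the nearest libraries were only 0.09 apart on the log2 scale, and the log2 fold change was -0.17 (SE 0.05). CTGF had 36.7 and 35.4 CPM in UHRF1 KO, against 23.3 and 28.4 CPM in control. Both UHRF1 KO libraries lay above both controls, which differed from each other by 0.28 on the log2 scale, and the log2 fold change was 0.48 (SE 0.082). The summed level of CYR61 and CTGF per length was 51.9 and 52.7 CPM per kb in UHRF1 KO, against 53.2 and 52.1 CPM per kb in control. CTGF was 30.3% and 28.7% of that sum in UHRF1 KO, against 18.8% and 23.3% in control.

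AXL, a receptor tyrosine kinase of the TAM family that binds GAS6, had 162.3 and 154.0 CPM in UHRF1 KO, against 269.2 and 264.9 CPM in control. The groups were far apart relative to the 0.08 and 0.02 log2 units between libraries of a group, and the log2 fold change was -0.76 (SE 0.04). AXL made up 88.3% and 87.0% of TAM receptor level per length in UHRF1 KO, against 94.8% and 95.7% in control. Its relative MERTK rose to 13.2 ± 0.572 CPM in UHRF1 KO, against 5.28 ± 1.0 CPM in control (SD, n = 2; log2 fold change 1.33, edgeR adjusted p = 6.57e-10). Of the ligands, PROS1 rose by 0.50 on the log2 scale (edgeR adjusted p = 1.87e-08) and GAS6 did not pass the test (log2 fold change 0.21, edgeR adjusted p = 0.231).

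Among the regulators, AJUBA, a LIM-domain scaffold that restrains LATS kinases, was lowest relative to control. It had 68.2 and 59.9 CPM in UHRF1 KO, against 134.5 and 128.1 CPM in control, a log2 fold change of -1.04 (SE 0.054). Its relatives LIMD1 and WTIP, named after their values were seen, went opposite ways, with log2 fold changes of -0.18 (edgeR adjusted p = 0.00569) and 0.78 (edgeR adjusted p = 1.32e-06). The LIMD1 call was lost with DESeq2 (adjusted p = 0.0597), without UHRF1 KO replicate 2 (adjusted p = 0.086) and with GC content and length trends removed (adjusted p = 0.0557). AMOTL2, an angiomotin-like protein that binds YAP at junctions, had 96.1 and 99.6 CPM in UHRF1 KO, against 144.7 and 133.5 CPM in control. Both UHRF1 KO libraries lay below both controls, with a log2 fold change of -0.51 (SE 0.047). LATS2, the kinase, had 34.8 CPM in both UHRF1 KO libraries, against 29.8 and 30.9 CPM in control, a log2 fold change of 0.20 (SE 0.073). LATS1, also named after its values were seen, fell to 32.1 ± 0.543 CPM in UHRF1 KO, against 40.0 ± 5.48 CPM in control (SD, n = 2; log2 fold change -0.32, edgeR adjusted p = 7.05e-04). LATS2 was 62.4% and 62.9% of the level per length of the kinase pair in UHRF1 KO, against 56.1% and 52.2% in control.

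TMM and an equal mean level set the libraries differently against each other. When the libraries were recentred to an equal mean log2 CPM, the median of all genes tested moved to -0.28 and the share of higher genes among all calls was 29.0%, beside 51.5% with TMM. This moves all genes down by about the same amount, so log2 fold changes below it in size turn negative by construction. Under that scaling LATS2 turned to -0.10 and YAP1 came to 0.02 on the log2 scale, and CTGF, at 0.18, was the only one of the 10 still called higher. CYR61 was then -0.47. Among the TEAD genes, TEAD2 was no longer called (log2 fold change 0.15, edgeR adjusted p = 0.0924) and TEAD4 was called lower (log2 fold change -0.28, edgeR adjusted p = 0.00136). Removing the trends of each library with GC content and gene length, a check added after seeing the data, left the direction of all 10 as with TMM. Of the 10, LATS2 was the only one to change direction in any of the 13 alternative fits, with ANKRD1 between -3.32 and -2.89 and THBS1 between -2.04 and -1.67. The LATS2 call was lost in 6 of the 13, and its value ran from -0.10 to 0.22.

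**Figure D3:**
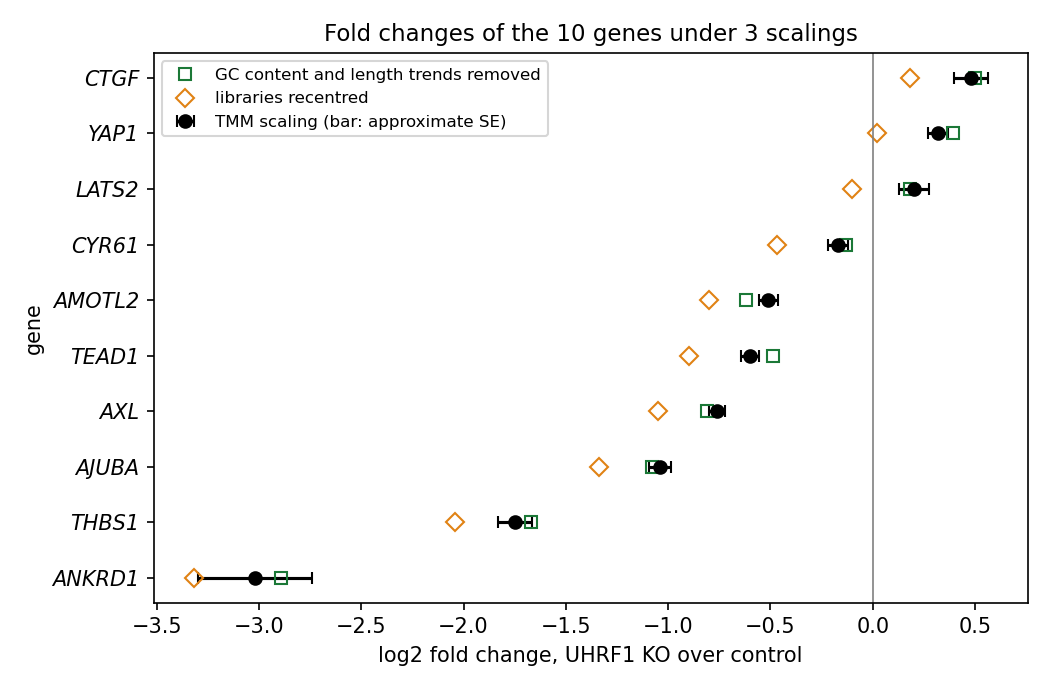
Log2 fold change (horizontal axis, UHRF1 KO over control) of the 10 genes with TMM scaling (black, bars are the approximate SE), with GC content and length trends removed (green squares) and with libraries recentred (orange diamonds). Recentring moves every gene down, LATS2 from 0.20 to -0.10 and YAP1 from 0.32 to 0.02, while ANKRD1 and THBS1 stay below -1.6 in all 3.

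The other genes of a published YAP and TAZ target signature moved in both directions. Of the 16 tested, 7 rose and 8 fell, with a median log2 fold change of -0.12, and 5 rose and 9 fell with libraries recentred. Among the falls were CRIM1, a transmembrane protein that binds bone morphogenetic proteins, and MYOF, the membrane repair protein myoferlin. CRIM1 had 338.4 and 328.1 CPM in UHRF1 KO, against 579.3 and 606.2 CPM in control (log2 fold change -0.83, SE 0.035, edgeR adjusted p = 5.02e-20). MYOF stood at 582.5 ± 15.9 CPM in UHRF1 KO and 886.7 ± 28.2 CPM in control (SD, n = 2; log2 fold change -0.61, edgeR adjusted p = 8.68e-17). The insulin-like growth factor binding protein IGFBP3 rose to 116.0 ± 3.85 CPM in UHRF1 KO, against 71.5 ± 0.567 CPM in control (SD, n = 2; log2 fold change 0.70, edgeR adjusted p = 3.99e-14). The ends of the list, named after their values were seen, were the tissue factor gene F3 at 2.33 (edgeR adjusted p = 1.38e-13) and the secreted matrix protein gene CCDC80 at -1.50 (edgeR adjusted p = 2.64e-10).

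Upstream, the kinases and scaffolds of the Hippo cascade had log2 fold changes from -0.44 to 1.02. Of 20 tested, 7 rose and 4 fell with a median of 0.03, and 2 rose and 14 fell with libraries recentred. MAP4K4, a kinase that can phosphorylate LATS, rose to 272.4 ± 2.22 CPM in UHRF1 KO, against 175.1 ± 6.31 CPM in control (SD, n = 2; log2 fold change 0.64, edgeR adjusted p = 1.49e-15). MAP4K2 rose by 1.02 on the log2 scale (edgeR adjusted p = 2.78e-11), and the WW-domain scaffold gene WWC3 fell by 0.44 (edgeR adjusted p = 6.72e-08). Of 18 junction and polarity regulators tested, 3 rose and 10 fell with a median of -0.14, and 3 rose and 12 fell with libraries recentred. PARD3, a polarity scaffold, fell to 96.6 ± 0.641 CPM in UHRF1 KO, against 161.2 ± 0.529 CPM in control (SD, n = 2; log2 fold change -0.74, edgeR adjusted p = 5.03e-16). The atypical cadherin gene FAT1 fell by 0.57 (edgeR adjusted p = 1.56e-09), and the polarity gene LLGL1 rose by 0.91 on the log2 scale (edgeR adjusted p = 3.04e-14).

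ANKRD1, CYR61, CTGF and THBS1 also respond to SRF with its co-activator MRTF and to TGF-beta, so genes of those inputs are given beside them. Of 17 SRF and MRTF actin genes tested, 6 rose and 8 fell, with a median of -0.12, and 5 rose and 10 fell with a median of -0.42 with libraries recentred. The myosin light chain gene MYL9 rose to 24.2 ± 1.74 CPM in UHRF1 KO, against 0.384 ± 0.0108 CPM in control (SD, n = 2, log2 fold change 5.96). With 7 counts in each control library, MYL9 passed the filter on low counts only through UHRF1 KO and could be called only as a rise. The LIM-domain gene FHL1 rose by 1.46 on the log2 scale (edgeR adjusted p = 9.22e-20) and the tropomyosin gene TPM1 fell by 0.73 (edgeR adjusted p = 2.2e-17). Of 13 TGF-beta pathway genes, 9 rose and 0 fell with a median of 0.11. None of the 13 had a fitted value below 0.01. In the same list 10 rose and 1 fell after removal of GC content and length trends, and 3 rose and 7 fell with libraries recentred, where the median of the list moved with that of all genes, to -0.19. The matrix gene TGFBI rose by 0.81 on the log2 scale (edgeR adjusted p = 1.37e-20) and the latent TGF-beta binding protein gene LTBP2 by 0.85 (edgeR adjusted p = 1.67e-13). Of the CCN and thrombospondin relatives and THBS1 receptors, 5 of 10 could be tested and all 5 rose, 3 of them also with libraries recentred. WISP2 rose by 1.22 on the log2 scale (edgeR adjusted p = 1.28e-09), and WISP1, at 1.72 CPM in UHRF1 KO and 0.192 CPM in control, by 3.13. WISP1 had only 3 and 4 counts in control and passed the filter on low counts only through UHRF1 KO. It could be called only as a rise, so nothing is read from its place among the 5. Over all these lists, each gene counted once, 42 of 98 genes tested rose and 30 fell, a called share of 73.5%, beside 62.0% of all genes tested. The genes were not matched for level, which affects how often a change is called, so nothing is read from these shares. With libraries recentred, 25 rose and 55 fell.

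**Figure D4:**
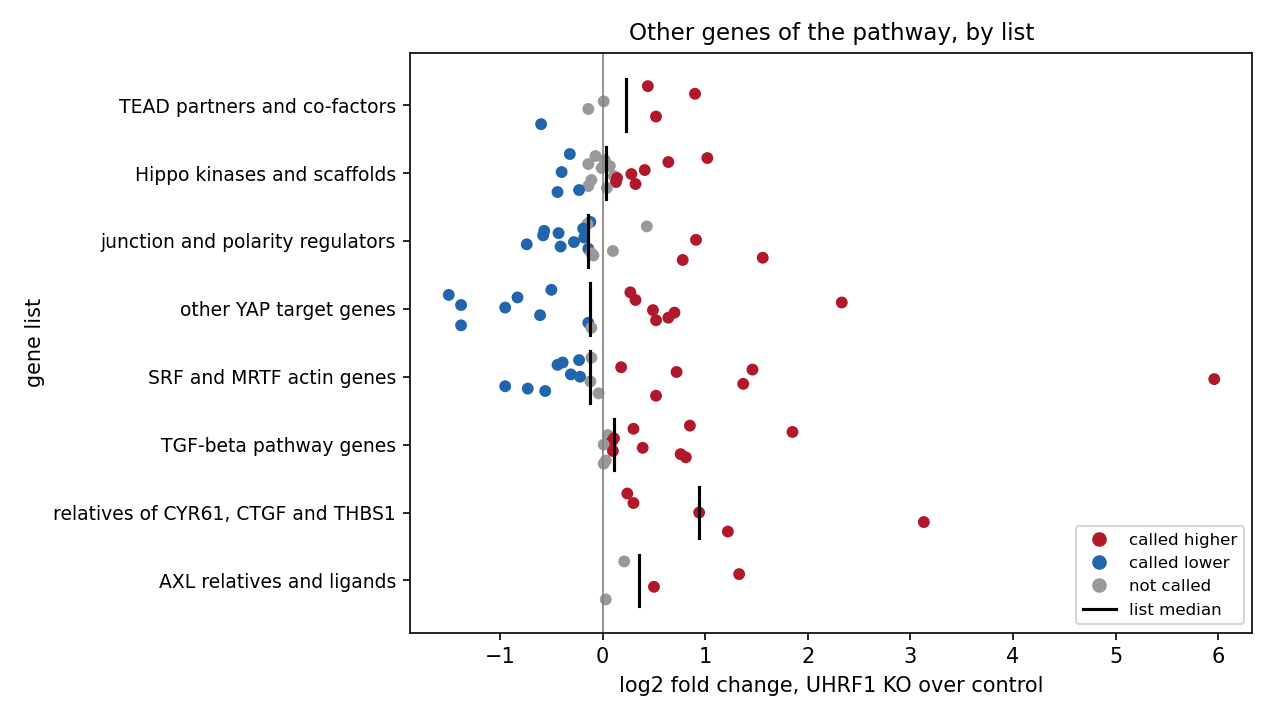
Log2 fold change (horizontal axis, UHRF1 KO over control) of each tested gene of 8 lists of pathway genes other than the 10 described, coloured by its edgeR call at an adjusted p under 0.05, with the list median as a black line. The other YAP target genes spread from -1.50 to 2.33 around a median of -0.12.

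The genes most like ANKRD1 across the 4 libraries were sought by the Euclidean distance between log2(CPM + 0.5) values centred on each gene's mean, among 13714 protein-coding genes tested. The 3 nearest were ZNF469, TMEM160 and KLHDC7A, at distances of 0.078, 0.225 and 0.231, beside a median of 2.3. ZNF469, a zinc finger gene known for its role in the cornea, had 9.1 and 8.63 CPM in UHRF1 KO, against 44.1 and 45.9 CPM in control. TMEM160 encodes a membrane protein and had 3.37 and 2.57 CPM in UHRF1 KO, against 13.6 and 15.6 CPM in control. KLHDC7A, a kelch-domain gene, had 1.11 and 0.884 CPM in UHRF1 KO, against 6.1 and 5.87 CPM in control. With 2 groups of 2 libraries, likeness here says only that the fall was of like size once 0.5 was added to each CPM. The fitted log2 fold changes were -2.35 for ZNF469, -2.31 for TMEM160 and -2.59 for KLHDC7A, beside -3.02 for ANKRD1. The pseudocount brings the value of ANKRD1 toward those of genes with smaller fitted folds.

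Reads of genes on opposite strands cannot be told apart where the counting did not use strand, which is not stated. The genes annotated over the 10 had few counts. The most were the 23 and 54 counts of FSIP1, which overlaps THBS1, in UHRF1 KO and its 22 and 27 counts in control, where THBS1 had 300 and 325 counts in UHRF1 KO, against 848 and 826 counts in control.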

How the data were processed

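RNA-seq read counts per gene for 4 libraries (2 UHRF1 KO, 2 control) were used as the authors deposited them, as whole-number counts that were not normalized. Per the submitters' processing notes, FastQC 0.10.1 and the build GRCh38 were used. The aligner, counting tool, annotation and strand setting are not stated in the sources. Totals were 20020366 and 23977168 counts in UHRF1 KO and 18604598 and 19222886 in control. The intervals given cover counting error only.

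All 58735 identifiers matched GENCODE 29, which gave symbols, coordinates and merged exon lengths. Both control samples carry the same short name, so their columns were matched by the number in the sample titles. The group is certain, the number less so. In R 4.3.3 with edgeR 4.0.16, genes were kept by filterByExpr (17030), scaled by TMM and tested with glmQLFit (robust) and glmQLFTest, two-sided, with Benjamini-Hochberg adjustment over all genes tested at 0.05. SE is approximate: the size of the log2 fold change divided by the root of F. Levels per length divide CPM by the merged exon length of all annotated transcripts, so levels and shares compared between genes depend on that length. The steps were tested on simulated data. Library pairs differed by more than counting noise (chi-square per degree of freedom 1.85 for UHRF1 KO and 2.65 for control).

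The 10 genes, the lists and the tests were chosen with earlier results of these data known. Named were UHRF1, the 10 genes, all TEAD partners, the 3 genes of each other list with the smallest adjusted p, the 3 genes most like ANKRD1, and others as marked; 1 gene so named is not reported here. Alternatives were DESeq2 size factors, upper-quartile factors, recentring, a minimum of 1 CPM in 2 libraries, no filter, DESeq2 1.42.0, limma-voom (limma 3.58.1), a replicate block, an adjusted p under 0.01, leaving out each library, a longer TEAD core and, added after seeing the data, removal of GC content and length trends.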

Additional observations from a re-analysis of the deposited data

How the results depend on the processing

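Of 46 genes followed through 13 alternative fits, 38 kept direction and side of the threshold in all, among them 7 of the 10 described. With libraries recentred, 3461 genes were called higher and 8467 lower, against 5445 and 5118, and the same setting gave 25 higher and 55 lower among the pathway lists, against 42 and 30, and 1 higher among the 10 genes, against 3. LATS2 turned to -0.10 and GAS6 to -0.09 there, and TEAD4 to -0.28. TEAD4, near 0 throughout, was also -0.02 with no filter, -0.01 with DESeq2, -0.14 after removal of GC content and length trends, and between -0.03 and 0.04 with 1 library left out. GAS6 was -0.01 after that removal. The cause was not tested. The CYR61 call was lost without UHRF1 KO replicate 1 (log2 fold change -0.15), and the LATS2 call was lost without control replicate 1 (0.15) and without either UHRF1 KO library (0.19 each). Leaving out 1 library gave 4626 to 5135 genes higher and 4388 to 5038 lower, 2 to 3 higher and 6 to 7 lower of the 10 genes, and 34 to 39 higher and 27 to 35 lower of the lists. With the replicate number as a block, 5280 genes were higher and 4986 lower and no call of a gene followed here changed. Deviations of same-numbered libraries had a correlation of -0.0338 over 14436 genes. Counting noise can hide a shared batch and the control numbers are uncertain, so this does not show whether the numbers pair the libraries. The longer core GGAATGT was found in windows of 3 genes, against 8 for GGAATG. Depth limits ANKRD1, at 14 counts in each UHRF1 KO library.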
